A study of Mus musculus with 10 samples.

Results

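The genes described here are 48 interferon-stimulated genes and interferon-inducible GTPases, taken by symbol from the 49568 genes of the expression table. They were measured in reactive cholangiocytes, the biliary epithelial cells that expand in an injured liver. The values come from 5 Smad4del mice, in which floxed Smad4 was deleted by Alb-Cre, and from 5 Ctl mice, given as Smad4wt/wt in the labels and as mice without Alb-Cre in the methods. All 10 mice had eaten a diet with 0.1% DDC, a compound that injures bile ducts, for 2 weeks, and each mouse gave 1 library. Cells positive for EPCAM and negative for CD45, TER119 and the dye TO-PRO-3 were sorted from the digested liver, although the labels also carry a cell line tag and a culture protocol. Alb-Cre is driven by the albumin promoter, which is active in hepatoblasts, the embryonic cells from which hepatocytes and cholangiocytes derive. The cohorts also differ in Cre by the methods, and its part was not tested. Each mouse carries its number from the labels, which do not tell litters or batches.

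Interferons are secreted proteins that warn cells of infection. Type I and type III interferons signal through JAK kinases to a complex that holds STAT2 and IRF9 and binds the interferon-stimulated response element (ISRE), while type II interferon (interferon gamma) acts through the gamma-activated site (GAS). The induced genes include RNA sensors, enzymes and membrane proteins that block viruses, and large GTPases that attack the vacuoles of intracellular pathogens.

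The cells of both cohorts were rich in cholangiocyte transcripts and the targeted gene was reduced as labelled. Reads on genes numbered 16734672 to 19710560 per Smad4del mouse and 16249719 to 21277339 per Ctl mouse. The value used throughout is the normalized count, a gene's reads scaled by the size factor of the mouse and not by gene length. Smad4 was 812, 1031, 687, 1011 and 846 in Smad4del mice against 3058, 3714, 3584, 2969 and 3619 in Ctl mice (log2 fold change -1.96 ± 0.12, adjusted p = 1.09e-05). The cholangiocyte keratin Krt19 averaged 30191 ± 5034 in Smad4del mice and 20799.6 ± 2472 in Ctl mice. Of 14 cholangiocyte markers, all detected, 3 were called higher in Smad4del, where 2.43% of all genes tested were called higher. The 14 summed to 552507 to 684768 normalized counts in Smad4del mice and 381239 to 554899 in Ctl mice. Ctl A5215 had the lowest of these sums (381239) and the highest sum of the macrophage markers given below (315353). Markers of other liver cells were detected as well. The 16 endothelial markers summed to 8068 to 17160 normalized counts in Smad4del mice and 23755 to 70435 in Ctl mice. Of these 16, 14 were called lower in Smad4del (median log2 fold change of the 16 -1.54), where 4.69% of all genes tested were called lower. The 16 macrophage markers summed to 26317 to 107311 in Smad4del mice and 38009 to 315353 in Ctl mice, and none of the 16 was at 0 in all mice. None was called, yet all 16 had a log2 fold change below 0, with a median of -2.51, which is further below 0 than the value of any tested member. T and NK cell markers summed to at most 108 in a Smad4del mouse and 297 in a Ctl mouse, and the 1 tested marker of this list, Cd4, was called lower (log2 fold change -4.15 ± 0.96, adjusted p = 0.0268). Of the stellate and fibroblast markers 2 of 10 were called lower, and 0 of the tested hepatocyte, neutrophil, B cell, erythroid and plasmacytoid dendritic cell markers were called by limma, the last list holding the member Bst2. The log2 fold change was below 0 in 5 of 5 neutrophil markers (median -1.58) and 4 of 4 B cell markers (median -1.0), and in 2 of 10 hepatocyte markers (median 0.40). The part of these markers in the members' levels was not tested. In such bulk samples fewer cells of a type and less RNA per cell cannot be told apart.

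A subset of the interferon-stimulated genes was lower in the sorted cells of Smad4del mice and none was called higher. The difference passed the test in 3 guanylate binding proteins of 1 gene cluster (Gbp2, Gbp3 and Gbp7), the immunity-related GTPase Irgm2, the transcription factors Irf1 and Stat2, and the membrane protein Ifitm3. The IFIT and ISG15 group (6 genes), the OAS genes (6) and the RNA sensors (3) had 0 members called by limma. With 4.69% of all genes tested called lower, few or no calls are met in groups of this size. Their log2 fold changes were below 0 in 6, 5 and 2 genes. In limma, fitted to log2(normalized count + 1) over the 14870 genes with a mean of at least 10, a gene was called at an adjusted p under 0.05 (Benjamini-Hochberg over all genes tested). Of the 48 members 47 were tested, since Mx1 was below this mean. Of these, 7 were called lower and 0 higher, where 4.69% of all genes tested were called lower and 2.43% higher. At an unadjusted p under 0.05, 15 members were lower and 0 higher, against 15.1% and 12.3% of all genes tested. The log2 fold change (Smad4del minus Ctl) was below 0 in 42 of 47 members, against 50.6% of all genes tested, and its median was -0.37 over the members and -0.005 over all genes tested. The cohorts did not overlap in 5 members, each lower in Smad4del, where 4.59% of all genes tested were lower and 3.5% higher without overlap. DESeq2 on recovered reads called 11 members lower and 0 higher, where 8.72% of all genes were called lower and 6.03% higher. These were the 7 and Herc6, Trim25, Trim30a and Gbp4. With edgeR 7 members were lower and 0 higher, against 4.02% and 2.1% of all genes.

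**Figure D1:**
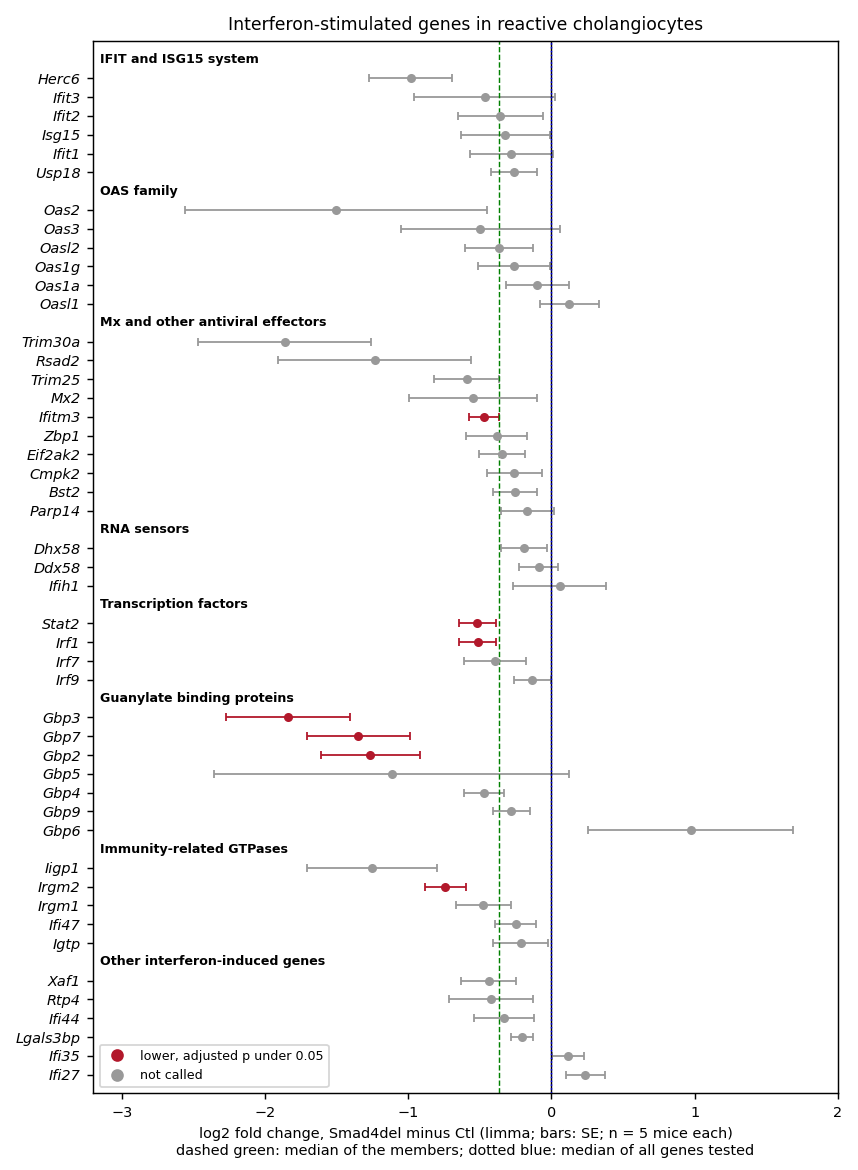
Log2 fold change of the 47 tested members, Smad4del minus Ctl, with its standard error from limma (5 mice per cohort), grouped by role. The 7 members in red were called lower, and the dashed line marks the median of the members at -0.37.

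The number of called members moved with single mice, while the median log2 fold change of the members stayed below 0. Without Ctl A5215, 3 members were called lower, without Ctl A5221 or Smad4del A5217 or A5218, 1, without Smad4del A5624 or Ctl A5626, 2, and without Ctl A5628, 4. Without Ctl A5219, 9 were called lower. Over these fits 2.21% to 5.74% of all genes were called lower. Irgm2 was called in each of these 10 fits that leave out 1 mouse, and its adjusted p stayed between 0.0101 and 0.0391. The median of the members ranged from -0.51 to -0.30 over these fits. The 2 Ctl mice at the ends of the cohort were A5219, which was the lowest Ctl mouse in 27 of the 47 members, and A5215, which was the highest in 20. A5219 also had the lowest endothelial marker sum of the Ctl mice (23755), and A5215 the highest endothelial (70435) and macrophage (315353) sums. The macrophage sum of A5219 (80152.5) was the median of the Ctl mice, and A5628 had the lowest (38009).

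**Figure D2:**
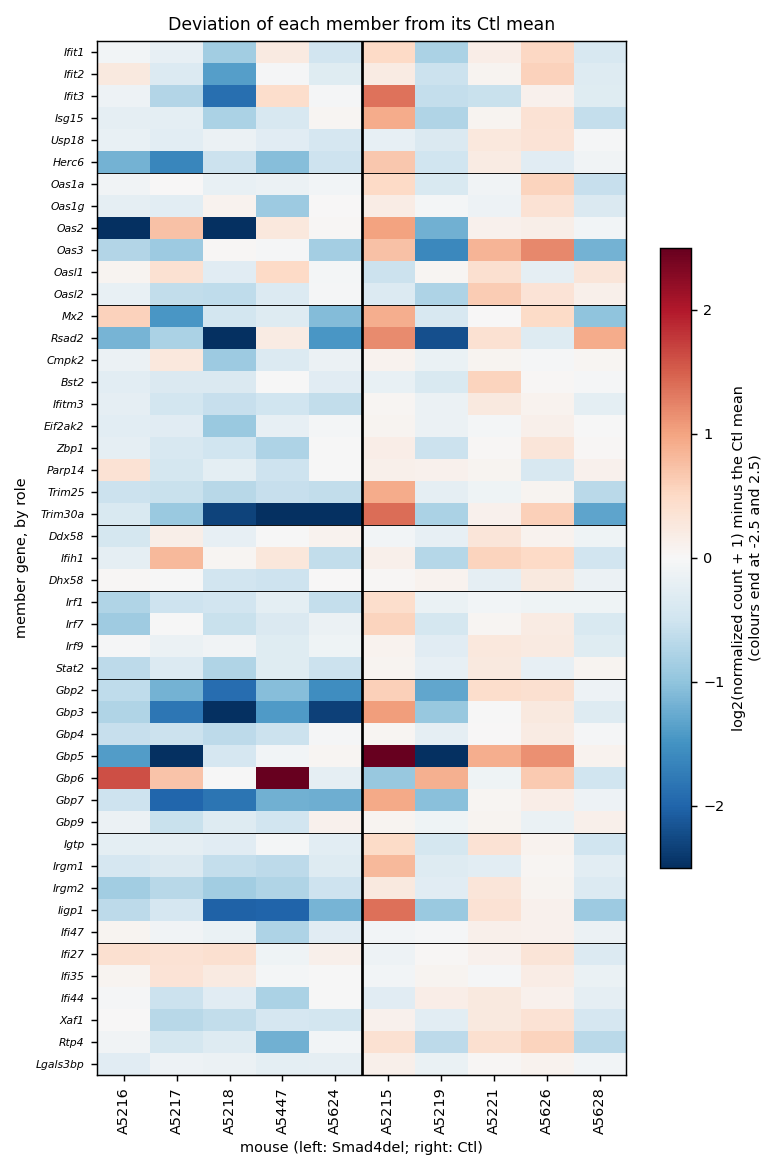
Deviation of each of the 47 tested members from its Ctl mean, in log2(normalized count + 1), with the 5 Smad4del mice left of the 5 Ctl mice and genes ordered by role. Blue cells fill most of the Smad4del columns, and the Ctl mouse A5219 is blue in many of the same rows.

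Upstream of the members, the ligands were close to absent. Of 21 interferon ligand genes, 16 were at 0 in all mice, the beta interferon gene Ifnb1 among them. Ifng, the gene of interferon gamma, was 14.5, 0, 13.2, 0 and 0 in Smad4del mice against 0, 0, 0, 18.2 and 0 in Ctl mice. Reads of it were thus present in 2 Smad4del mice and 1 Ctl mouse. None of the 21 passed the filter, so none was tested. The sort was set against CD45-positive leukocytes, the usual makers of interferon gamma, and interferon made elsewhere in the liver was not measured.

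The receptors were expressed in both cohorts and the relay behind them was lower in Smad4del in part. None of the 6 receptor genes was called. Ifngr1, the ligand-binding chain for interferon gamma, averaged 5989.6 ± 531 in Smad4del mice and 7007 ± 1033 in Ctl mice (log2 fold change -0.22 ± 0.11, adjusted p = 0.208), and Ifngr2, its partner chain, averaged 3196 ± 286 in Smad4del mice and 2956 ± 182 in Ctl mice (log2 fold change 0.11 ± 0.08, adjusted p = 0.395). Of 10 genes of the JAK-STAT relay and its brakes, 3 were called lower and 0 higher, against 4.69% and 2.43% of all genes tested. The 3 were the kinase genes Jak1 and Jak2 and the gene of the transcription factor Stat3, which is best known from signalling by interleukin 6. Jak1 averaged 6306 ± 877 in Smad4del mice and 9169 ± 1372 in Ctl mice (log2 fold change -0.54 ± 0.12, adjusted p = 0.0243). Jak2 averaged 1176 ± 306 in Smad4del mice and 1897 ± 386 in Ctl mice (log2 fold change -0.70 ± 0.18, adjusted p = 0.0401), and Stat3 averaged 4909 ± 576 in Smad4del mice and 6527 ± 582 in Ctl mice (log2 fold change -0.41 ± 0.09, adjusted p = 0.0248). Of 7 other tested IRF genes and 13 tested genes of the nucleic acid sensing relay, 0 were called in either direction by limma, with medians of 0.14 and -0.07 on the log2 scale. Among the abundant genes of these lists were Irf2bp2, a corepressor that binds IRF2 (2021 ± 372 in Smad4del mice and 2027 ± 995 in Ctl mice), Tmem173, the adaptor STING (2662 ± 225 in Smad4del mice and 2579 ± 348 in Ctl mice), and Ikbke, a kinase that activates IRF3 (1693 ± 200.3 in Smad4del mice and 1795 ± 351 in Ctl mice).

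Among the 4 transcription factors of the list, Irf1 and Stat2 were called lower and did not overlap between cohorts. Over all genes tested, 4.69% were called lower and 4.59% were lower without overlap. In the order A5216, A5217, A5218, A5447 and A5624 for Smad4del and A5215, A5219, A5221, A5626 and A5628 for Ctl, which is kept below, Irf1 was 3567, 4167, 4267, 5052 and 3952 in Smad4del mice against 8135, 5322, 5717, 5529 and 5535 in Ctl mice. Irf1 is an early interferon gamma target that in turn binds the promoters of the GTPase genes. Its log2 fold change was -0.52 ± 0.13, adjusted p = 0.0339, a ratio of 0.699, and the highest Smad4del mouse (A5447) was below the lowest Ctl mouse (A5219). Stat2, a subunit of the complex that binds the ISRE, was 472, 586, 437, 594 and 506 in Smad4del mice against 777, 643, 879, 643 and 775 in Ctl mice. The highest Smad4del mouse was again A5447, at 594 against 643 in the lowest Ctl mice, and the log2 fold change was -0.52 ± 0.13, adjusted p = 0.0367. The call of Irf1 was lost without Smad4del A5216, A5217, A5218 or A5624 or Ctl A5221 or A5626 (adjusted p by limma of 0.0520 to 0.0781). That of Stat2 was lost without any 1 mouse other than Ctl A5219, Ctl A5626 or Smad4del A5447 (0.0567 to 0.0872), and under median scaling (0.0545). Irf7, the amplifier of type I interferon responses, and Irf9, the DNA-binding partner of Stat2, had log2 fold changes of -0.39 and -0.13 and were not called. Irf1 overlaps an antisense gene model (Gm17334), and the library kit does not mark strand.

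The guanylate binding proteins showed the lowest median of the 8 roles, -1.12 on the log2 scale over 7 genes. Of these 7, 3 were called lower, where 4.69% of all genes tested were called lower. These large GTPases coat pathogen vacuoles and help open them. The median is the value of Gbp5, a gene with few reads (log2 fold change -1.12 ± 1.24, adjusted p = 0.587). Gbp2 was 536, 365, 220.1, 395 and 282 in Smad4del mice against 1248, 338, 1119, 1089 and 758 in Ctl mice, with a log2 fold change of -1.27 ± 0.35, adjusted p = 0.0479 (ratio of 0.416). Ctl A5219, at 338, lay inside the range of the Smad4del mice, and the other 4 Ctl mice were above all 5. Gbp3 was 157, 74.9, 34.5, 98.6 and 51.2 in Smad4del mice against 542, 136, 260.0, 312 and 211 in Ctl mice, with a log2 fold change of -1.84 ± 0.43, adjusted p = 0.0285 (ratio of 0.280). Again A5219 was the one Ctl mouse within the Smad4del range, below Smad4del A5216. Gbp7 was 283, 101, 114, 175 and 172 in Smad4del mice against 785, 194, 420.1, 453 and 369.7 in Ctl mice, with a log2 fold change of -1.35 ± 0.36, adjusted p = 0.0447 (ratio of 0.392), and A5219 and A5216 crossed in the same way. The exact two-sided permutation p of the normalized count was 0.0317 for Gbp2 and 0.0159 for Gbp3 and Gbp7, where 0.00794 is the smallest that 5 mice against 5 can give. Smad4del A5216, the highest Smad4del mouse in all 3 genes, also had the highest macrophage marker sum of its cohort (107311), whose part was not tested. Its endothelial marker sum (12861) was the median of its cohort, and A5624 had the highest (17160).

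**Figure D3:**
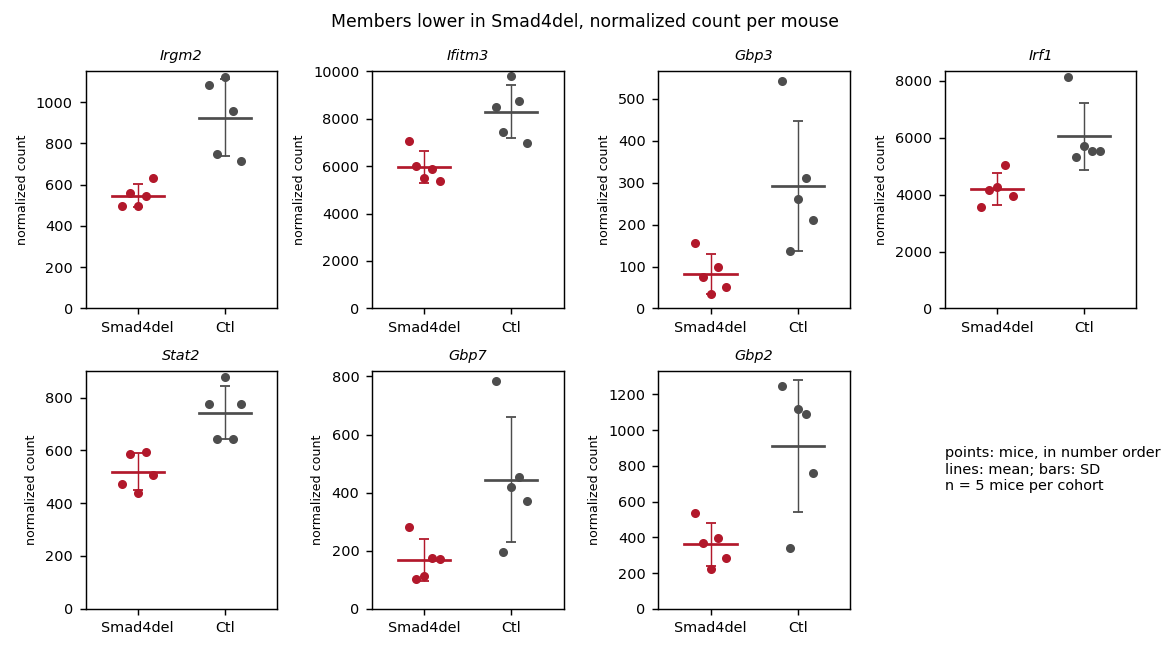
Normalized counts of the 7 members called lower, 1 point per mouse with the mean and SD of each cohort (n = 5 each). Irgm2, Irf1 and Stat2 do not overlap between Smad4del and Ctl, while in the 3 Gbp genes 1 Ctl mouse lies within the Smad4del range.

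The called Gbp genes lie in 1 cluster. On GRCm38 (GENCODE M21 gene models) the members Gbp5, Gbp7, Gbp3 and Gbp2 lie in this order on the plus strand of chromosome 3, from chr3:142493978-142522344 for Gbp5 to chr3:142620602-142638008 for Gbp2, with Gbp7 at chr3:142530342-142550149 and Gbp3 at chr3:142560026-142573209. Between Gbp3 and Gbp2 lies Gbp2b (chr3:142594847-142619179), which is not among the 48 members. It was 33.2, 0.998, 36.5, 0 and 0 in Smad4del mice against 319.9, 0, 45.3, 160.1 and 2.22 in Ctl mice, and it was not called (log2 fold change -2.31 ± 1.70, adjusted p = 0.401). Gbp4, Gbp9 and Gbp6 lie on the minus strand of chromosome 5, from 105077630 to 105293698. This split by chromosome was made after the values were seen and was not tested. Of the 4 members on chromosome 3, 3 were called, where 4.69% of all genes tested were called lower. The fourth, Gbp5, was low, at 0.998 to 27.1 in Smad4del mice and 0 to 166 in Ctl mice. The summed normalized count of the 4 was 985, 542, 387, 694 and 532 in Smad4del mice against 2741, 668, 1849, 1912 and 1367 in Ctl mice. Apart from A5219, each Ctl mouse was above all Smad4del mice. The 3 members on chromosome 5 summed to 1756, 1408, 1553, 1496 and 2177 in Smad4del mice against 2162, 1878, 2136, 2002 and 2196 in Ctl mice, and 0 of them were called by limma. Here Smad4del A5624 stood among the highest Ctl mice. For Gbp4 the log2 fold change was -0.47 ± 0.14, adjusted p = 0.0629, and DESeq2 called it. Gbp9 had -0.28 ± 0.13, adjusted p = 0.184, and Gbp6, whose highest level in a mouse was 40.5, had 0.97 ± 0.72, adjusted p = 0.401. Gbp4, Gbp8 and Gbp9 overlap in the annotation and the family is close in sequence, so the division of reads among them is uncertain.

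Of the 5 immunity-related GTPases, which act beside the guanylate binding proteins at pathogen vacuoles, Irgm2 was called lower and each of the others had a log2 fold change below 0. Of all genes tested, 4.69% were called lower, and 4.59% were lower without overlap between the cohorts. Irgm2, a regulator that guards the cell's own membranes, was 498, 560.0, 498, 543 and 631 in Smad4del mice against 1081, 748, 1121, 955 and 716 in Ctl mice. The highest Smad4del mouse was at 631 (A5624) and the lowest Ctl mouse at 716 (A5628), so the cohorts did not overlap. The log2 fold change was -0.74 ± 0.14, adjusted p = 0.0132, a ratio of 0.599. Its gene model (chr11:58199618-58222782, plus strand) overlaps that of Igtp, another GTPase of the family, at chr11:58199556-58207591, and the sources do not tell how reads of the shared stretch were assigned. For Igtp it was -0.21 ± 0.19, adjusted p = 0.491, which was not called. Irgm1, also a regulatory GTPase, averaged 1346 ± 131 in Smad4del mice and 1955 ± 749 in Ctl mice. It did not overlap between cohorts, yet was not called (log2 fold change -0.47 ± 0.19, adjusted p = 0.139). Iigp1, an effector GTPase and one of the 3 uncalled members with the largest differences, was 605, 709, 233, 238 and 425 in Smad4del mice against 2477, 499, 1219.6, 1029 and 506 in Ctl mice. Both cohorts spread widely and overlapped, and its log2 fold change was -1.25 ± 0.46, adjusted p = 0.106. For Ifi47 the log2 fold change was -0.25 ± 0.15, adjusted p = 0.286.

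**Figure D4:**
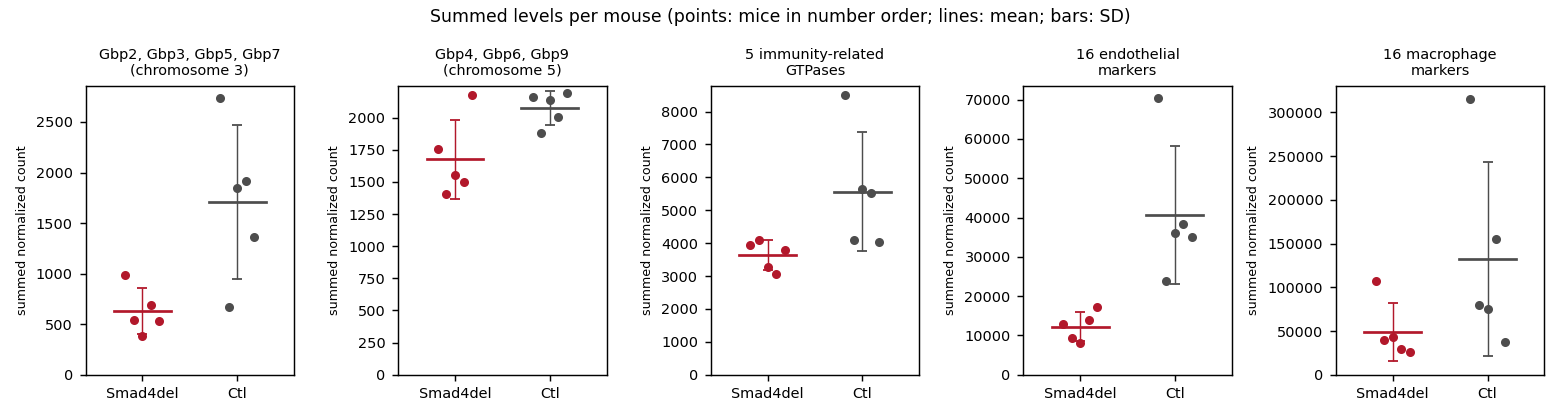
Summed normalized counts per mouse of the Gbp genes of chromosome 3 and of chromosome 5, the 5 immunity-related GTPases, and the endothelial and macrophage markers, with the mean and SD of each cohort (n = 5 each). Ctl A5215, the first Ctl point, is the highest of all mice for the chromosome 3 Gbp genes, the immunity-related GTPases and both marker sets.

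RefSeq promoters of the members were searched for the motifs of the interferon-responsive factors. A promoter here is the 300 bases from 250 before to 50 after the start site (GRCm38.p6), and 35 of the 48 members had an entry. The ISRE core GAAANNGAAA and the GAS core TTCNNNGAA were searched on both strands, and the 2 cores may overlap. The ISRE core was in the promoters of 21 of the 35 members (60.0%), against 3.99% of 27025 genes, and the GAS core in 11 of 35 (31.4%), against 9.55%. Of the 7 called members, 6 held the ISRE core and 4 the GAS core, and of the 28 uncalled members with a promoter entry, 15 and 7. Both cores were in 3 of the 7 and in 5 of the 28, which were Igtp, Bst2, Gbp5, Oas1a and Eif2ak2. A match is a description and not a shown site. The promoters of 4 called members and of Isg15, an uncalled member with 3 ISRE cores, are printed to let these layouts be compared, written 5′ to 3′ on the gene's strand with both cores in capitals.
Gbp2 (chr3:142620413-142620712, plus strand): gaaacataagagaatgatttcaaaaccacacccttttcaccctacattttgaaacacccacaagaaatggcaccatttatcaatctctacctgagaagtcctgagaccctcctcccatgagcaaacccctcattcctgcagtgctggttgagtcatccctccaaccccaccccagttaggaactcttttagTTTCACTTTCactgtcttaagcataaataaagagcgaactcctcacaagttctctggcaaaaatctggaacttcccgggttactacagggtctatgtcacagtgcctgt
Gbp7 (chr3:142530086-142530385, plus strand): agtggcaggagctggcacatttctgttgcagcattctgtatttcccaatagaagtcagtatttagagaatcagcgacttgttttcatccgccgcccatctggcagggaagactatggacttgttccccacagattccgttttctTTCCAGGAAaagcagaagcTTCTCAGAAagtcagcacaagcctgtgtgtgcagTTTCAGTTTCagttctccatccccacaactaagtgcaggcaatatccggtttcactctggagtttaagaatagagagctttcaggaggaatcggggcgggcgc
Irgm2 (chr11:58214727-58215026, plus strand): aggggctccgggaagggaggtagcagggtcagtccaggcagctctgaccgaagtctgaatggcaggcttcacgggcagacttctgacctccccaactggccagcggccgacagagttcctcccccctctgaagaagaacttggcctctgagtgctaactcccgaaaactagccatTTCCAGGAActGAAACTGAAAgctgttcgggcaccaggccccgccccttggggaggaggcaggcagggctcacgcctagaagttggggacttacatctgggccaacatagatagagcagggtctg
Irf1 (chr11:53769764-53770063, plus strand): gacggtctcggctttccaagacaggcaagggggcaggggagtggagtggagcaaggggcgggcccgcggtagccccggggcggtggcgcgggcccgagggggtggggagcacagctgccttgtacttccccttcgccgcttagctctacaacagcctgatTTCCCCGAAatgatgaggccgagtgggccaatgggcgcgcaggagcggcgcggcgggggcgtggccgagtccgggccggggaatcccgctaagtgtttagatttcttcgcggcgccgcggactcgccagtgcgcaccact
Isg15 (chr4:156200769-156201068, minus strand): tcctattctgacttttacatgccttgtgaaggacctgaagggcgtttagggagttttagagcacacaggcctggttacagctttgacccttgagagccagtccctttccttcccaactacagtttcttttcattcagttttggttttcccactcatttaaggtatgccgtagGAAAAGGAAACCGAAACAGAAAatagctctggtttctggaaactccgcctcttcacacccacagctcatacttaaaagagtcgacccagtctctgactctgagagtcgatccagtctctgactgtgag
Positions give the first base of a core from the start site. Gbp2 held 1 ISRE core at -59, and Gbp7 held 1 at -53 with GAS cores at -106 and -87. Gbp3, between them on the chromosome, held overlapping ISRE cores at -45 and -39 in the first of its 2 promoters. Irgm2 held a GAS core at -75 and an ISRE core at -64. Irf1 held a GAS core at -90 and no ISRE core in the printed promoter, the first of its 2, and neither core in the second. Isg15 held overlapping ISRE cores at -78, -72 and -66, and was not called. Igtp, also not called, held a GAS core at -45 and an ISRE core at -34, in the same order as Irgm2.

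The group of Mx and other antiviral effectors, which holds the dynamin-like GTPase genes Mx1 and Mx2, included 1 called gene, Ifitm3. Over all genes tested, 4.69% were called lower. Ifitm3, which blocks the fusion of viruses with endosomal membranes and had the highest level of the 48 members also per kilobase of exon, was 7045, 6003, 5500.0, 5862 and 5381 in Smad4del mice against 8472, 7432, 9794, 8752 and 6986 in Ctl mice. Smad4del A5216 (7045) stood above the lowest Ctl mouse (A5628, 6986), and the other 4 Smad4del mice lay below all Ctl mice. The log2 fold change was -0.47 ± 0.11, adjusted p = 0.0241, a ratio of 0.721. Its call was lost without Smad4del A5217, A5218 or A5624 or Ctl A5221 or A5626 (adjusted p by limma of 0.0541 to 0.0626). Of the other 9 tested genes of the group, each had a log2 fold change below 0, from -1.86 for Trim30a to -0.17 for Parp14, and none was called by limma, while DESeq2 called Trim25 and Trim30a. The median of all 10 was -0.43. Trim30a, a ubiquitin ligase family member that dampens inflammatory signalling in mice, was 148, 102, 38.5, 28.6 and 24.01 in Smad4del mice against 515, 112, 209, 294 and 77.7 in Ctl mice. The cohorts overlapped, and its log2 fold change of -1.86 ± 0.60, adjusted p = 0.0778 was the largest difference among uncalled members. For Trim25, which ubiquitinates the RNA sensor RIG-I, the log2 fold change was -0.59 ± 0.23, adjusted p = 0.122. Rsad2 (viperin), an enzyme that makes a chain-ending nucleotide, ranged from 22.3 to 209 in Smad4del mice and from 39.1 to 416 in Ctl mice. Bst2, or tetherin, which holds budding viruses at the cell surface, averaged 1310.1 ± 138 in Smad4del mice and 1599 ± 422 in Ctl mice with a log2 fold change of -0.26 ± 0.15, adjusted p = 0.302. Mx1 had reads in 2 Smad4del mice and 2 Ctl mice and was not tested.

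The genes most often used as readouts of type I interferon were not called by limma, where 4.69% of all genes tested were called lower. In the IFIT and ISG15 group the 6 log2 fold changes were all below 0, with a median of -0.34, from -0.98 for Herc6 to -0.26 for Usp18. Herc6, the ligase that attaches ISG15 in mice, averaged 96.3 ± 30.4 in Smad4del mice and 191 ± 64.9 in Ctl mice and did not overlap between cohorts, with an adjusted p of 0.0591 by limma. DESeq2 called it lower, as did limma without Ctl A5219. Isg15 itself, the ubiquitin-like modifier, averaged 166 ± 34.2 in Smad4del mice and 225 ± 110.2 in Ctl mice (log2 fold change -0.32 ± 0.31, adjusted p = 0.527), and Ifit1, which binds foreign RNA caps, averaged 193 ± 53.3 in Smad4del mice and 241 ± 88.3 in Ctl mice (log2 fold change -0.28 ± 0.29, adjusted p = 0.563). Smad4del A5218 was the lowest Smad4del mouse in Ifit1, Ifit2, Ifit3 and Isg15. Of the 6 genes of the OAS family, 5 had a log2 fold change below 0 and none was called. Some enzymes of this family sense double-stranded RNA and switch on RNase L. Oas2 was 1.037, 44.9, 0, 32.2 and 27.1 in Smad4del mice against 54.4, 11.04, 28.7, 29.7 and 25.5 in Ctl mice. Of the Smad4del mice, A5216 held 1 read and A5218 none. The log2 fold change was -1.51 ± 1.05, adjusted p = 0.374, and among the mice numbered A54xx and A56xx (2 per cohort) it was 0.10. It was -0.68 without Smad4del A5218, -0.94 without Smad4del A5216, -0.59 with a pseudocount of 10, -0.50 by DESeq2 and -0.48 by edgeR, and 0 of these fits called it. Oasl1 had the opposite sign (0.12 ± 0.21, adjusted p = 0.731). Oas1a and Oas1g are near-identical copies of a larger cluster, so their reads may be shared. The 3 RNA sensors had log2 fold changes of -0.09 for Ddx58 (RIG-I), 0.06 for Ifih1 (MDA5) and -0.19 for Dhx58 (LGP2), and none was called.

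The remaining 6 interferon-induced genes held 2 of the 4 members with the highest means and no call, where 4.69% of all genes tested were called lower. Lgals3bp, a secreted glycoprotein that binds galectin 3, was 5583, 6214, 6156, 5749 and 5841 in Smad4del mice against 7496, 6040.4, 6935, 7265 and 6462 in Ctl mice. The cohorts overlapped at A5219, and the log2 fold change was -0.21 ± 0.08, adjusted p = 0.111. Ifi27, a mitochondrial protein gene, was 3529, 3477, 3542, 2494 and 2948 in Smad4del mice against 2473, 2737, 2915, 3344 and 2136 in Ctl mice. It was 1 of 5 tested members with a log2 fold change above 0 (0.24 ± 0.13, adjusted p = 0.275), and the cohorts overlapped. Xaf1, Rtp4 and Ifi44 had log2 fold changes of -0.44, -0.42 and -0.33, and Ifi35 had 0.12.

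Outside the 48 members, 5 of 42 other tested interferon-inducible genes were called lower and 0 higher, with a median log2 fold change of -0.20. Of all genes tested, 4.69% were called lower and 2.43% higher. The log2 fold change was below 0 in 32 of the 42, against 50.6% of all genes tested. Ifi204, a DNA sensor of the PYHIN family, was 123, 88.8, 46.7, 66.3 and 143 in Smad4del mice against 489, 188, 438, 284 and 335 in Ctl mice. Its cohorts did not overlap (log2 fold change -1.91 ± 0.34, adjusted p = 0.00837). Sp100, a nuclear body protein, averaged 267 ± 80.5 in Smad4del mice and 717 ± 268 in Ctl mice (log2 fold change -1.40 ± 0.26, adjusted p = 0.0106), and its relative Sp110 averaged 49.6 ± 17.2 in Smad4del mice and 139.7 ± 71.5 in Ctl mice (log2 fold change -1.42 ± 0.36, adjusted p = 0.0383). The cohorts did not overlap in either. Tor3a, an ATPase of the endoplasmic reticulum, averaged 1076 ± 90.6 in Smad4del mice and 1646 ± 346 in Ctl mice (log2 fold change -0.59 ± 0.13, adjusted p = 0.022). Tgtp2, a further GTPase of the immunity-related family, averaged 68.5 ± 21.96 in Smad4del mice and 178 ± 71.9 in Ctl mice (log2 fold change -1.31 ± 0.33, adjusted p = 0.0383). In the other direction, Lgals9, which encodes galectin 9, averaged 8339 ± 765 in Smad4del mice and 6862 ± 475 in Ctl mice without overlap and was not called (log2 fold change 0.28 ± 0.08, adjusted p = 0.0624).

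The called members had a log2 fold change below 0 in each series of mouse numbers. They were called on these same mice, so their sign within a series is not independent support. Among mice numbered A52xx (3 per cohort) the log2 fold change was -0.90 for Irgm2, -1.84 for Gbp3, -1.43 for Gbp7, -1.15 for Gbp2, -0.65 for Irf1, -0.62 for Stat2 and -0.47 for Ifitm3. Among mice numbered A54xx and A56xx (2 per cohort) it was -0.50 for Irgm2, -1.84 for Gbp3, -1.23 for Gbp7, -1.44 for Gbp2, -0.31 for Irf1, -0.36 for Stat2 and -0.48 for Ifitm3. None of the members was called in either series alone. Over all genes, 362 were called higher and 697 lower in Smad4del, and quantile normalization turned this split into 579 higher and 607 lower and median scaling into 626 higher and 639 lower, with 7 and 6 members called lower.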

How the data were processed

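RNA of sorted reactive cholangiocytes of 5 Smad4del and 5 Ctl mice was measured, 1 library per mouse (SMART-Seq v4, single-end reads). To make the deposited signal values, the authors used Trimmomatic 0.36 for trimming, STAR with GRCm38 for alignment and featureCounts with GENCODE genes for counting, and divided by the DESeq2 1.14.1 size factor of each mouse in R 3.3.2. The submitters' notes also name mm9. Counts were made from uniquely aligned reads and with multi-mapping reads, and it is not given which of these was deposited.

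Values are printed as the mean ± SD of 5 mice per cohort, and log2 fold changes (Smad4del minus Ctl) as the estimate ± SE. Adjusted p-values are from limma 3.58.1 (R 4.3.3, trended prior, no covariate) on log2(normalized count + 1), with genes of a mean of at least 10 and Benjamini-Hochberg adjustment over all genes tested. The pseudocount generally understates fold changes of low genes, while a mouse at or near 0 can inflate them, as in Oas2. Single members were also compared by an exact two-sided permutation test. Every value divided by the smallest of its mouse was whole (100% at a relative tolerance of 1e-06), which gave back reads for DESeq2 1.42.0 and edgeR 4.0.16, run as alternatives. In Smad4del A5217 1 read is worth nearly 1, so both tools were also run without this mouse, a choice made after seeing the data. Further alternatives were other pseudocounts (0.5 and 10), no filter or a minimum mean of 50, quantile and median scaling, sample weights, mouse number series, and leaving out each mouse. The scripts were tested on simulated data. No 2 libraries agreed within sampling noise. The labels do not give litters, so p-values measure the spread between these mice.

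Members and lists were chosen with earlier results of these data known. Values in every mouse are given for called members, the 4 members with the highest mean and the 3 uncalled members with the largest differences, and for Smad4, Ifng and Ifi204. Of the other lists up to 4 called genes are named, or the 2 with the highest mean, of which 1 is not reported here. Values of Ifng and Ifi204 by mouse, the mention of Gbp2b, Lgals9 and the fifth called gene of the list of other interferon-inducible genes, and the split of the Gbp genes were chosen after the values were seen. Promoters are from RefSeq (GRCm38.p6), positions from GENCODE M21.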

Additional observations from a re-analysis of the deposited data

Results flagged for a closer look

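Over the 47 tested members and both cohorts, 94 groups of 5 mice were checked for a mouse far from the others, and 5 held one (chance gives about 1 in 20 groups). In Ctl mice, Irf1 in A5215 (8135, the next highest being 5717) and Parp14 in A5626 (338.5, the next lowest being 469.1) stood apart. In Smad4del mice, Eif2ak2 in A5218 (289, next lowest 454.2), Gbp4 in A5624 (553.3, next highest 389.6) and Igtp in A5447 (542.6, next highest 483.2) stood apart. Each was in a different mouse. Irf1 is the one called member among them, and without A5215 it was called (log2 fold change -0.40).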

How the results depend on the processing

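Members called higher numbered 0 in all 24 alternatives, and the median of the members stayed between -0.51 and -0.27. The count of 7 members called lower was 3 with no filter, 0 in either mouse number series alone, 11 by DESeq2 and 1 by edgeR without mouse A5217, and 1 to 9 on leaving out 1 mouse. Over all genes, 697 lower became 62 (mice A52xx), 36 (mice A54xx and A56xx), 1290 (DESeq2), 265 (edgeR without A5217) and 329 to 852 on leaving out 1 mouse. The 362 higher became 209 (no filter), 579 (quantile), 626 (median scaling), 12 and 1 (the same 2 series), 893 (DESeq2), 89 (edgeR without A5217) and 105 to 563 on leaving out 1 mouse. Fewer mice were in the series fits; other causes were not tested. Oas2 turned to 0.10 in mice A54xx and A56xx. With the number series as a term, Gbp2 (adjusted p by limma 0.0557) and Gbp7 (0.0518) were no longer called. Both were called on leaving out Smad4del A5216 or Ctl A5219 and lost without any other 1 mouse (0.0532 to 0.109), and Gbp3 was lost without Ctl A5215, A5221 or A5626 or Smad4del A5217, A5218 or A5624 (0.0589 to 0.0678). Trim30a was called by DESeq2, by DESeq2 without A5217 and without Smad4del A5216 by limma, and Iigp1 by DESeq2 without A5217. Smad4 was called in all 24. No paired analysis was possible because each mouse number belongs to 1 mouse of 1 cohort. Low members such as Oas2, Gbp5, Gbp6 and Mx1 rest on few reads.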
